A study of Mus musculus with 9 samples.

Results

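The genes described here are 34 markers of the cells that line blood and lymphatic vessels, taken from a fixed list of symbols. Of these, 28 are markers of blood vessel endothelium and 6 of lymphatic endothelium. A probe set was found for 33 of them among 24011 named genes on the array, and Ccl21a was not analysed here. All 33 passed the filter on low levels. The list holds known markers and was drawn up with earlier results of these arrays known, and its rule uses no measured value.

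Total RNA was taken from the large intestine of mice on a C57BL/6 background and measured on 9 microarrays, 3 for each of 3 groups. The groups were DHX9-1271 (DHX9.1271/rtTA mice), DHX9-837 (DHX9.837/rtTA mice) and control (FLuc.1309/rtTA mice). The first and second groups carried a short hairpin RNA against Dhx9, which codes for an RNA and DNA helicase, and the control hairpin was against firefly luciferase, a gene that mice lack. All groups, control included, carried rtTA, the activator that switches the hairpin on in the presence of doxycycline, and all drank doxycycline at 1 mg/ml with 5% sucrose for 14 days from 4 weeks of age. The promoter that drives rtTA, and so the cells in which the hairpin acts, is not given in the sources used here. Each Dhx9 hairpin is represented by 1 mouse line. Whether the replicates of a group were separate animals is not in the labels, and p-values here cover only the spread among these arrays, which may be technical.

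Endothelial cells form the inner wall of vessels. Blood endothelial cells are held together by VE-cadherin and other junction proteins, and respond to vascular endothelial growth factors, angiopoietins and BMP ligands through receptors such as Kdr, Tek and Eng. Lymphatic endothelial cells drain fluid and, in the gut, absorbed fat. They depend on the transcription factor Prox1 and on VEGF-C acting through Flt4. In whole tissue, a change in the number of cells of a type and a change in their RNA per cell cannot be told apart.

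The array medians were alike, at log2 levels of 6.24 to 6.28. Dhx9 had log2 levels of 8.27, 8.22 and 8.18 in DHX9-1271, 8.19, 8.22 and 8.20 in DHX9-837, and 9.21, 9.18 and 9.32 in control. With both hairpins together 49.2% of the control signal was left (limma, adjusted p = 1.28e-05), and the exact two-sided permutation test over the 9 arrays gave p = 0.0119. For each hairpin alone against control the exact permutation test gave p = 0.1. Both values are the lowest that this test can give with so few arrays. All 12 colon epithelium markers that were looked up passed the filter on low levels, and their mean level per array was 11.3 to 11.4 in DHX9-1271, 11.2 in DHX9-837 and 11.3 in control.

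With both hairpins set against control, 8 of the 33 endothelial genes rose and 0 fell. The genes that rose were Emcn, Eng, Cdh5, Prox1, Ptprb, Pecam1, Plvap and Lyve1, with log2 folds between 0.17 and 0.35, that is 1.13-fold to 1.27-fold. Among all 16808 genes tested by the same rule (limma, Benjamini-Hochberg adjusted p under 0.05), 8.13% rose and 5.33% fell, against 24.2% and 0 of the endothelial genes. The median log2 fold of the 33 genes was 0.07, against 0.00 for all genes. A log2 fold above 0 was found for 27 of the 33, against 8473 of all 16808 genes. Every knockdown array lay above every control array for 8 of the 33 genes, against 10.7% of all genes, and below it for 0, against 6.73%. Those above were Eng, Ptprb, Cdh5, Cldn5, Emcn, Plvap, Lyve1 and Prox1. Pecam1 was called although its arrays overlapped, and Cldn5 was not called although its arrays did not. The counts are a description, with no test over the list.

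RMA can leave identical values for 1 gene in several arrays, which was the case for 17 of the 33 genes and for 45.3% of all genes. Of the 16 endothelial genes without identical values, 7 rose, against 12.2% of all such genes. Of the 17 with identical values only Plvap rose, against 3.26% of all such genes. The median log2 fold was 0.15 in the 16 genes and 0.05 in the 17. Kdr, Flt1, Flt4, Mmrn1 and the transcription factors Erg, Sox7 and Sox18 were among the 17.

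For 5 genes the RefSeq sequence around the transcription start (GRCm38.p6, from 250 bases before to 50 bases after the start, written on the gene's strand) is shown, to set 3 genes that rose beside 2 receptors that were not called. Capitals mark every match to AGGAAG or its reverse complement CTTCCT, and to ACAAT or its reverse complement ATTGT, a SOX-type core. AGGAAG is a form of the site bound by ETS factors such as Erg and Ets1, and other forms of that site are not marked.
Emcn, chr3:137340828-137341127, plus strand: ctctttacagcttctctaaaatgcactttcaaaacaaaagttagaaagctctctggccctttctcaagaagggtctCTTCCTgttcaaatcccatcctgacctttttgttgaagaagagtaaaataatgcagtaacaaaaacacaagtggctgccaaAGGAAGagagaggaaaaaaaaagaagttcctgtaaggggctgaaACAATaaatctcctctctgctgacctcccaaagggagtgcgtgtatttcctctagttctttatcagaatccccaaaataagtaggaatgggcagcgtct
Eng, chr2:32646345-32646644, plus strand: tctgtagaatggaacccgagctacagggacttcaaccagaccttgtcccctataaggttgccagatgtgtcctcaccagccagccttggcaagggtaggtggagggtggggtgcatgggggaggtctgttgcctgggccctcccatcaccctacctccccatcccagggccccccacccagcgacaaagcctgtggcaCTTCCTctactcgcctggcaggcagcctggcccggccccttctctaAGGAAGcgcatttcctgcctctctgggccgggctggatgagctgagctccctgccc
Prox1, chr1:190169466-190169765, minus strand: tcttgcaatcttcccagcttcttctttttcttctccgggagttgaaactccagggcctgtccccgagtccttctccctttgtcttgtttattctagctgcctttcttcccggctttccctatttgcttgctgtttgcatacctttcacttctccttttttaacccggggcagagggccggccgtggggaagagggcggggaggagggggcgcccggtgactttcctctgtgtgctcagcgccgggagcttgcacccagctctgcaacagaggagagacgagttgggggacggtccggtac
Flt1, chr5:147725962-147726261, minus strand: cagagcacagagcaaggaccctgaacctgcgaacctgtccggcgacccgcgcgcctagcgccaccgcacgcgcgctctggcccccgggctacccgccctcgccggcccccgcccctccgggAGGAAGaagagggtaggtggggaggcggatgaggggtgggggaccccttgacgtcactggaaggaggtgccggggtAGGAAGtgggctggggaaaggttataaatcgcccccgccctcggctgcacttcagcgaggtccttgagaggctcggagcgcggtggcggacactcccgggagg
Tie1, chr4:118489800-118490099, minus strand: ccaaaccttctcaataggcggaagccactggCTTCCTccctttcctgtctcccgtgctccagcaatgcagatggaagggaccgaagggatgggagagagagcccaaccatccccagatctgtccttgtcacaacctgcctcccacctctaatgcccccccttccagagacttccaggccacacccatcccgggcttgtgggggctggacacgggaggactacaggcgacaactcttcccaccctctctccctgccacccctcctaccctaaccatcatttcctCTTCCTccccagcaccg
Emcn held 2 ETS-type matches and 1 SOX-type match. Eng, Flt1 and Tie1 each held 2 ETS-type matches and no SOX-type match, and the Prox1 window held no match to the letters marked. Matches did not overlap each other. A sequence was found for 19 of the 34 genes, in 24 windows, since some genes have several starts. AGGAAG or CTTCCT was in 12 of those 24 windows, against 35.4% of all 32851 mouse windows of the same length. The SOX-type core was in 7 of the 24, against 31% of all windows. Flt1 and Tie1 had the most ETS-type matches among the uncalled receptors and signals with a sequence. Kdr, Tek and Esm1 had 0, and Robo4 and Apln had 1 each, so the receptors shown do not stand for the others. ETS-type matches were present in promoters of genes that rose and of genes that were not called. A match of letters does not show that a factor binds there.

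Of the 10 junction and adhesion genes of blood endothelium, 4 rose with both hairpins and 0 fell, against 8.13% and 5.33% of all genes. Emcn, which codes for endomucin, a sialomucin of capillary and venous endothelium, had the highest fold of the 33 genes. Its log2 levels were 7.55, 7.66 and 7.61 in DHX9-1271, 7.66, 7.66 and 7.58 in DHX9-837, and 7.20, 7.35 and 7.27 in control. Every knockdown array lay above the highest control array. The log2 fold was 0.35 (SE 0.047, limma adjusted p = 0.00257), with 0.33 for DHX9-1271 (adjusted p = 0.0151) and 0.36 for DHX9-837 (adjusted p = 0.00342).

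Cdh5 codes for VE-cadherin, the adherens junction protein specific to endothelium. It had log2 levels of 8.39, 8.43 and 8.52 in DHX9-1271, 8.42, 8.49 and 8.41 in DHX9-837, and 8.05, 8.25 and 8.20 in control. Knockdown and control arrays did not overlap, and control replicate 1 was the lowest array. Cdh5 had a log2 fold of 0.28 with both hairpins (SE 0.056, limma adjusted p = 0.0131), 0.28 with DHX9-1271 (adjusted p = 0.0473) and 0.27 with DHX9-837 (adjusted p = 0.0219). Plvap, which forms the diaphragms of fenestrated capillaries, had log2 levels of 8.82, 8.94 and 8.81 in DHX9-1271, 8.82, 8.95 and 8.85 in DHX9-837, and 8.62, 8.73 and 8.63 in control. Replicate 2 was highest in each group, and all knockdown arrays still lay above all control arrays. The log2 fold of Plvap was 0.20 with both hairpins (SE 0.051, limma adjusted p = 0.0332), and it was called with DHX9-837 (0.21, adjusted p = 0.0434) and not with DHX9-1271 (0.20, adjusted p = 0.105).

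Pecam1, or CD31, is an adhesion receptor at endothelial contacts that platelets and leukocytes also carry. Log2 levels were 8.26, 8.33 and 8.24 in DHX9-1271, 8.06, 8.01 and 8.11 in DHX9-837, and 7.86, 8.02 and 7.97 in control. The DHX9-1271 arrays lay clear of all others, whereas DHX9-837 replicate 2 lay just under control replicate 2. Pecam1 had a log2 fold of 0.22 with both hairpins (SE 0.048, limma adjusted p = 0.0191), 0.32 with DHX9-1271 (adjusted p = 0.0172) and 0.11 with DHX9-837 (adjusted p = 0.225). Cd34, a sialomucin that some fibroblasts also carry, was not called with both hairpins, at a log2 fold of 0.26 (SE 0.079, limma adjusted p = 0.0668). Its control arrays spread widely, from 7.74 to 8.15. The other junction genes, none of them called, had log2 folds from -0.10 (Rasip1, a regulator of vessel lumen formation) to 0.08 (Ecscr, an endothelial surface protein). Between these lay the tight junction gene Cldn5 at 0.07, the leukocyte ligand Icam2 at 0.05 and the adhesion molecule Esam at -0.05.

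**Figure D1:**
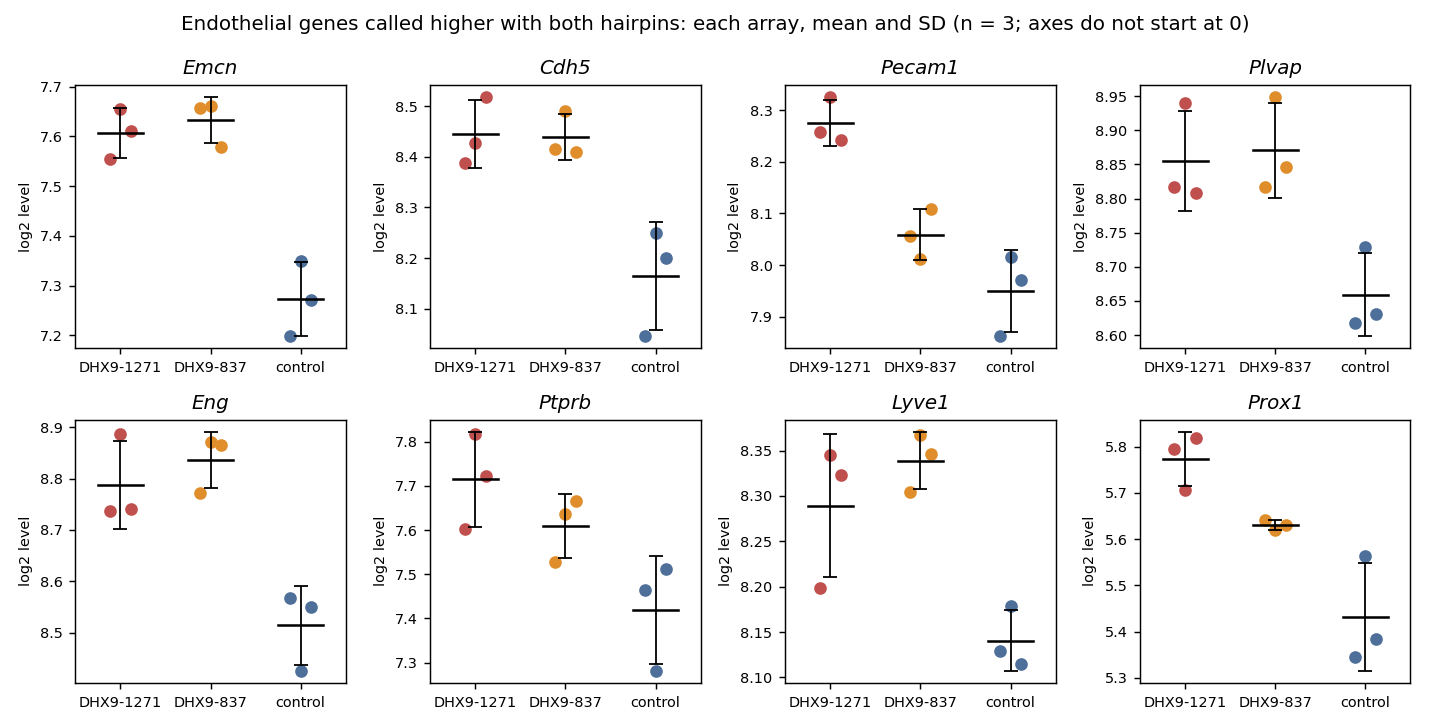
Log2 level (vertical axes, which do not start at 0) of the 8 endothelial genes that rose with both hairpins, in DHX9-1271, DHX9-837 and control. Points are arrays, lines are group means and bars are the SD (n = 3); all knockdown points lie above all control points except in Pecam1, where DHX9-837 and control overlap.

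Of the 11 receptors and signals of blood endothelium, 2 rose with both hairpins and 0 fell, against 8.13% and 5.33% of all genes. Eng codes for endoglin, a co-receptor for BMP9 and TGF-beta ligands. It had log2 levels of 8.74, 8.89 and 8.74 in DHX9-1271, 8.77, 8.87 and 8.87 in DHX9-837, and 8.57, 8.43 and 8.55 in control. No knockdown array reached down to the control arrays. Eng had a log2 fold of 0.30 with both hairpins (SE 0.054, limma adjusted p = 0.00862), 0.27 with DHX9-1271 (adjusted p = 0.0453) and 0.32 with DHX9-837 (adjusted p = 0.00959). Ptprb, or VE-PTP, is a phosphatase that acts on Tek and on VE-cadherin. Ptprb had log2 levels of 7.60, 7.82 and 7.72 in DHX9-1271, 7.53, 7.64 and 7.67 in DHX9-837, and 7.46, 7.28 and 7.51 in control. DHX9-837 replicate 1 was only slightly above control replicate 3. The log2 fold was 0.24 (SE 0.069, limma adjusted p = 0.0488), just under the threshold, and neither hairpin alone passed it (adjusted p = 0.0775 for DHX9-1271 and 0.144 for DHX9-837).

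The VEGF receptors of blood endothelium were not called. Kdr, or VEGFR2, the main signalling receptor for VEGF-A, had log2 levels of 7.72, 7.85 and 7.73 in DHX9-1271, 7.79, 7.84 and 7.77 in DHX9-837, and 7.58, 7.49 and 7.73 in control. Control replicate 3 overlapped the DHX9-1271 arrays, and the log2 fold with both hairpins was 0.18 (95% interval 0.048 to 0.32, limma adjusted p = 0.0764). Flt1, or VEGFR1, which binds VEGF-A and limits signalling through Kdr, had 7.20, 7.20 and 7.24 in DHX9-1271, 7.20, 7.14 and 7.20 in DHX9-837, and 7.15, 7.18 and 7.14 in control. The DHX9-1271 arrays lay just above control and the DHX9-837 arrays overlapped it, and the log2 fold with both hairpins was 0.04 (95% interval -0.044 to 0.12, limma adjusted p = 0.533).

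Tek, the angiopoietin receptor TIE2, is given here because its values were seen to differ between the hairpins. Its log2 levels were 6.95, 7.05 and 6.96 in DHX9-1271, 6.62, 6.75 and 6.82 in DHX9-837, and 6.68, 6.66 and 6.85 in control. The DHX9-1271 arrays lay above all others, and the DHX9-837 arrays overlapped control. The log2 fold was 0.25 with DHX9-1271 (limma adjusted p = 0.0871) and 0.00 with DHX9-837, and neither was called. The remaining receptors and signals, none of them called, had log2 folds with both hairpins from -0.05 (Aplnr, the apelin receptor) to 0.15 (Apln, its ligand). Esm1, a proteoglycan of tip cells, also had 0.15, Robo4, a receptor that stabilises vessels, had 0.07, Nos3, the endothelial nitric oxide synthase, had 0.04 and Tie1, the partner of Tek, had 0.00. Aplnr and Tie1 were among the 6 of the 33 genes with a fold below 0, although Tie1 lay at 0.00 after rounding.

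The matrix and secreted genes and the transcription factors gave 0 calls of 3 and 0 calls of 4 with both hairpins (limma). Of all genes 8.13% rose and 5.33% fell. At an unadjusted p under 0.05 the counts were 0 and 1, where 29.0% of all genes passed. Vwf, the clotting factor stored in endothelial granules and in platelets, had a log2 fold of 0.14 (adjusted p = 0.174). Egfl7, a secreted factor of vessel tube formation, had 0.07, and Mmrn2, an endothelial matrix glycoprotein, had -0.07. Of the transcription factors, the ETS factor Erg had 0.05, and the SOX-F factors Sox17, Sox18 and Sox7 had 0.05, 0.13 and -0.01. Sox18 was the 1 gene under the unadjusted threshold (adjusted p = 0.148).

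Of the 5 lymphatic genes measured, 2 rose with both hairpins and 0 fell, against 8.13% and 5.33% of all genes. Prox1, the transcription factor that sets lymphatic identity, had log2 levels of 5.80, 5.71 and 5.82 in DHX9-1271, 5.64, 5.62 and 5.63 in DHX9-837, and 5.35, 5.56 and 5.38 in control. The 3 groups did not overlap, with DHX9-1271 highest and control lowest. Its level was near the filter, which lay at 5.28, and the cells that made its RNA were not identified. Prox1 had a log2 fold of 0.27 with both hairpins (SE 0.055, limma adjusted p = 0.0135), 0.34 with DHX9-1271 (adjusted p = 0.0232) and 0.20 with DHX9-837 (adjusted p = 0.0679).

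Lyve1 is a hyaluronan receptor of lymphatic capillaries that some tissue macrophages also carry. Its log2 levels were 8.20, 8.35 and 8.32 in DHX9-1271, 8.30, 8.37 and 8.35 in DHX9-837, and 8.13, 8.18 and 8.11 in control. The lowest knockdown array, DHX9-1271 replicate 1, was barely above control replicate 2. The log2 fold was 0.17 with both hairpins (SE 0.045, limma adjusted p = 0.0368), 0.15 with DHX9-1271 (adjusted p = 0.151) and 0.20 with DHX9-837 (adjusted p = 0.0337).

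The other lymphatic genes were not called. Flt4, or VEGFR3, the receptor for VEGF-C, had log2 levels of 6.99, 6.98 and 6.95 in DHX9-1271, 6.98, 6.98 and 7.02 in DHX9-837, and 6.97, 7.07 and 6.89 in control. Its control arrays spanned all of the knockdown arrays, and the log2 fold was 0.00 (95% interval -0.10 to 0.11, limma adjusted p = 0.964). Mmrn1, a secreted multimerin also stored in platelets, had 7.22, 7.15 and 7.23 in DHX9-1271, 7.24, 7.22 and 7.33 in DHX9-837, and 7.22, 7.19 and 7.28 in control. Its groups overlapped, with a log2 fold of 0.00 (95% interval -0.10 to 0.10, limma adjusted p = 0.996). Pdpn, or podoplanin, a mucin-like protein that fibroblasts also carry, had 8.15, 8.14 and 8.31 in DHX9-1271, 8.53, 8.36 and 8.31 in DHX9-837, and 8.29, 8.27 and 8.21 in control. All DHX9-837 arrays lay above control, while DHX9-1271 replicates 1 and 2 lay below it. The log2 fold with both hairpins was 0.05 (95% interval -0.098 to 0.19, limma adjusted p = 0.679).

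**Figure D2:**
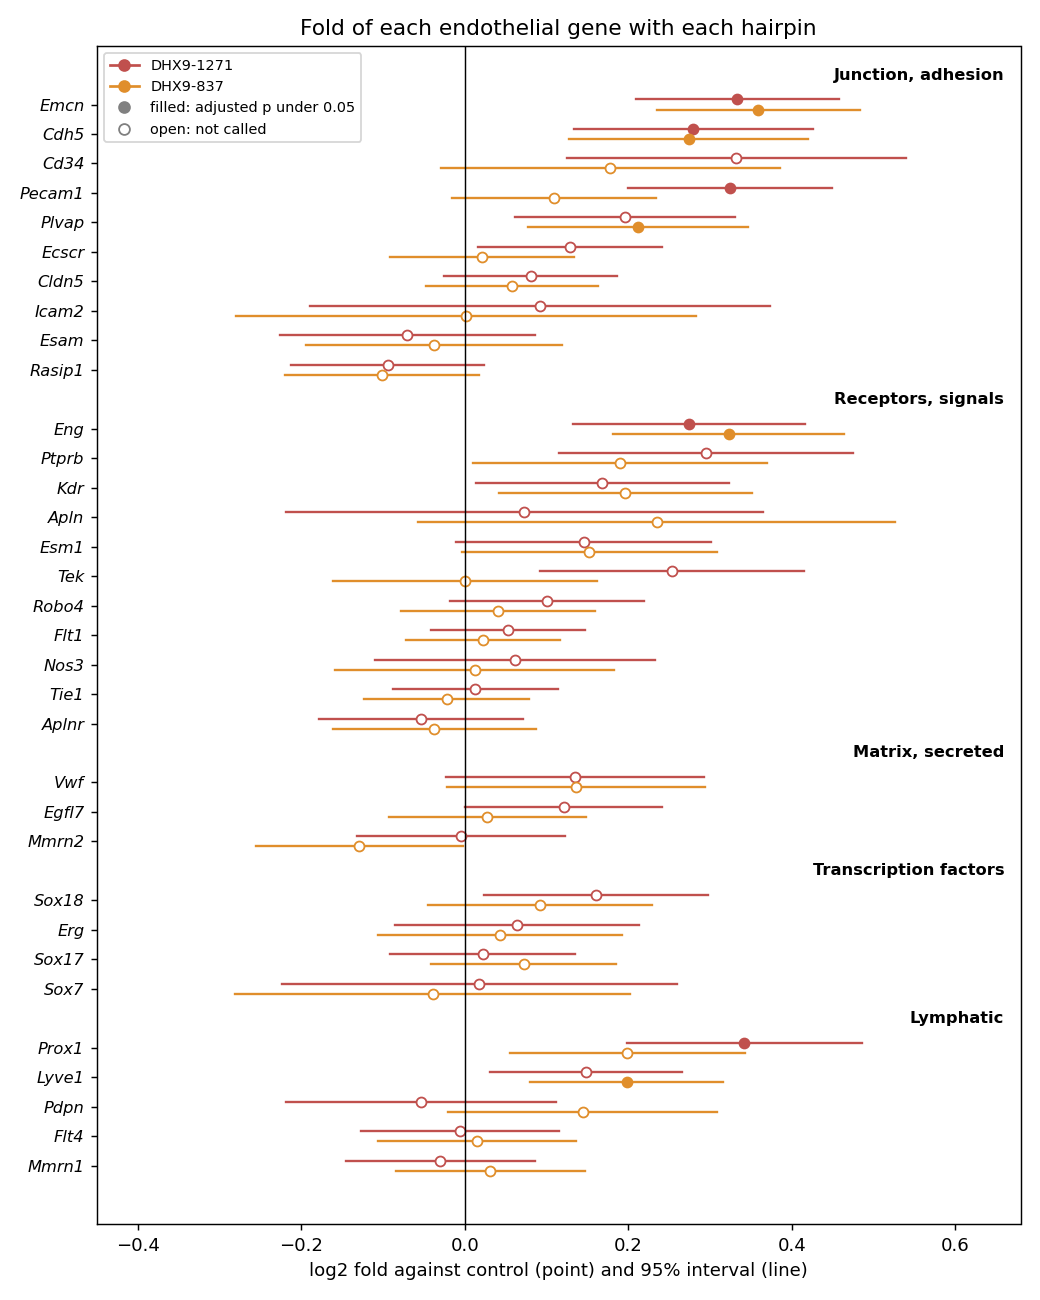
Log2 fold of each of the 33 endothelial genes (down the page, by role) against control, DHX9-1271 above DHX9-837 in each pair. Points are the limma fold, lines the 95% interval, and filled points were called at an adjusted p under 0.05. Emcn, Cdh5 and Eng are filled for both hairpins, and all filled points lie to the right of 0.

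Each hairpin alone called 5 of the 33 genes as higher and 0 as lower. With DHX9-1271 these were Emcn, Pecam1, Prox1, Eng and Cdh5, where 2.83% of all genes rose and 1.58% fell. With DHX9-837 they were Emcn, Eng, Cdh5, Lyve1 and Plvap, where 8.67% of all genes rose and 6.91% fell. Emcn, Eng and Cdh5 were called with each hairpin, both of which were set against the same control arrays. The split of all genes with DHX9-1271 was 475 higher and 266 lower, and 425 higher and 366 lower after cyclic loess between arrays. For the endothelial genes that scaling left 3 calls with DHX9-1271, all of them higher. The median log2 fold of the 33 genes was 0.10 with DHX9-1271 and 0.06 with DHX9-837, against 0.01 and 0.00 for all genes. Every DHX9-1271 array lay above every control array for 15 of the 33 genes, where 15.4% of all genes did so. With DHX9-837 the arrays lay above control for 11 genes, where 17.1% of all genes did so, and below control for 1, Mmrn2, where 14.3% of all genes did so.

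At an unadjusted p under 0.05 there were 14 genes with DHX9-1271 and 9 with DHX9-837, where 20.5% and 30.1% of all genes passed. For DHX9-1271 against control, leaving out its replicate 1 left 1 call, and leaving out its replicate 2 or replicate 3 left 0. Then 9 and 11 genes were at an unadjusted p under 0.05, and the share of all genes was not counted. Among all genes, calls in this comparison also went down, from 741 to 128 without DHX9-1271 replicate 3. Leaving out control replicate 1 left 3 calls with both hairpins, 2 with DHX9-1271 and 2 with DHX9-837. With both hairpins together Emcn, Eng and Cdh5 stayed called whichever array was left out, whereas Ptprb and Lyve1 lost the call in 8 of 9 such fits and Plvap in 7 of 9.

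Set directly against each other, DHX9-837 and DHX9-1271 gave 0 calls among the 33 genes (limma), where 0.696% of all genes were higher in DHX9-837 and 1.21% lower. Those shares came from 320 genes, and 28 were called without DHX9-1271 replicate 3. At an unadjusted p under 0.05 there were 3 genes, Tek, Pecam1 and Pdpn, where 14.3% of all genes passed. Their values were given above and were chosen for this difference. For Tek the log2 difference, DHX9-837 minus DHX9-1271, was -0.25 (95% interval -0.41 to -0.091, limma adjusted p = 0.130). For Pecam1 it was -0.22 (95% interval -0.34 to -0.091, limma adjusted p = 0.0991), and for Pdpn it was 0.20 (95% interval 0.033 to 0.36, limma adjusted p = 0.248). Every DHX9-837 array lay below every DHX9-1271 array for 6 genes, against 12.6% of all genes, and above for 0, against 9.37%. Those 6 were Tek, Pecam1, Cd34, Ecscr, Egfl7 and Prox1. The differences that failed the test do not show that the hairpins acted alike. For Emcn the interval of the difference was -0.098 to 0.15, and for Cdh5 it was -0.15 to 0.14.

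Blood vessel and lymphatic genes were also averaged within each array. The mean log2 level of the 28 blood vessel genes, less its mean in control, was 0.0992 to 0.161 in the DHX9-1271 arrays, 0.0668 to 0.113 in the DHX9-837 arrays and -0.0106 to 0.0113 in the control arrays. The mean of the 5 lymphatic genes was 0.0580 to 0.119 in the DHX9-1271 arrays, 0.101 to 0.132 in the DHX9-837 arrays and -0.0307 to 0.0466 in the control arrays. On both means all knockdown arrays lay above all control arrays. The group mean of the blood vessel genes was 0.125 in DHX9-1271 and 0.0854 in DHX9-837, and that of the lymphatic genes was 0.0801 in DHX9-1271 and 0.117 in DHX9-837. With both hairpins the means were 0.105 for blood vessel and 0.0988 for lymphatic genes. The lymphatic mean came from Prox1, Lyve1 and, in DHX9-837, Pdpn, while Flt4 and Mmrn1 lay near 0. No test was made of these means.

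**Figure D3:**
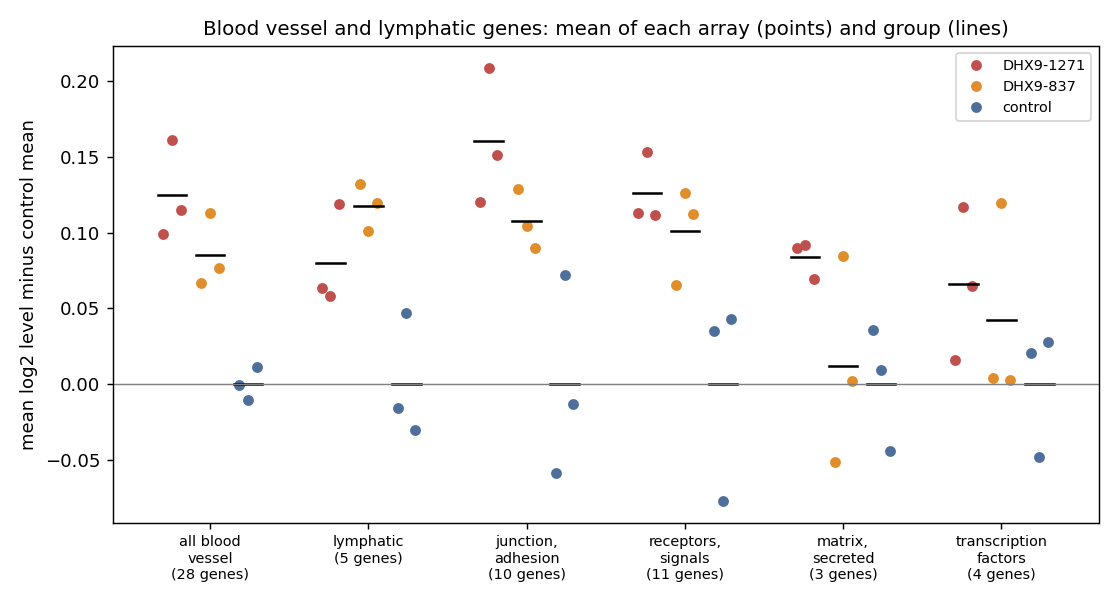
Mean log2 level of the endothelial genes less its mean in control (vertical axis), for all blood vessel genes, lymphatic genes and the 4 roles of blood vessel genes. Points are arrays and lines are group means (n = 3); for the 28 blood vessel and the 5 lymphatic genes all DHX9-1271 and DHX9-837 points lie above the control points, whereas the transcription factors overlap control with both hairpins and the matrix genes with DHX9-837 only.

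Genes that act with these markers were looked up in 7 partly overlapping lists of 94 different genes, 85 of which were tested. With both hairpins 10 rose (11.8%) and 0 fell, where 8.13% of all genes rose, and the median log2 fold of the 85 was 0.05. With DHX9-1271, 3 rose (3.53%, against 2.83% of all genes) and 0 fell. With DHX9-837, 8 rose (9.41%, against 8.67% of all genes) and 2 fell. These shares were near those of all genes. By list, from 8.33% (endothelial transcription factors) to 20.0% (BMP9, sphingosine phosphate and flow genes) rose with both hairpins, where 8.13% of all genes did. Between the hairpins there were 0 calls (limma), with 9 of the 85 at an unadjusted p under 0.05, where 14.3% of all genes passed.

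Of 16 VEGF, angiopoietin and guidance ligands and co-receptors, 2 rose. Nrp1, the co-receptor of Kdr for VEGF-A, had log2 levels of 7.30, 7.55 and 7.36 in DHX9-1271, 7.38, 7.61 and 7.43 in DHX9-837, and 6.94, 7.14 and 7.18 in control. All knockdown arrays lay above control, with a log2 fold of 0.35 (limma adjusted p = 0.0232). Slit2, a ligand of Robo receptors, rose by a log2 fold of 0.17 (limma adjusted p = 0.0437), and its knockdown and control arrays overlapped. Of 11 Notch and ephrin genes, Jag1, a Notch ligand of many cell types, rose with a log2 fold of 0.39 (limma adjusted p = 0.0452), with knockdown and control arrays overlapping. Its fold was 0.21 with DHX9-1271, not called, and 0.58 with DHX9-837, called (adjusted p = 0.0159).

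Of 10 tested genes of BMP9, sphingosine phosphate and flow signalling, 2 rose. Id1 is a target of BMP receptors, among them those that Eng assists, in endothelium and in many other cells. Its log2 levels were 9.80, 9.89 and 9.90 in DHX9-1271, 9.79, 9.99 and 9.86 in DHX9-837, and 9.12, 9.48 and 9.20 in control. All knockdown arrays lay above control, with a log2 fold of 0.60 (1.52-fold, limma adjusted p = 0.00244). S1pr1, the sphingosine phosphate receptor of endothelium and lymphocytes, had 7.21, 7.30 and 7.08 in DHX9-1271, 7.16, 7.05 and 7.05 in DHX9-837, and 6.82, 6.88 and 6.83 in control. Its knockdown arrays also lay above control, with a log2 fold of 0.30 (limma adjusted p = 0.00951). Smad7, an inhibitor of TGF-beta and BMP signalling, fell with DHX9-837 by 0.29 on the log2 scale (limma adjusted p = 0.0159) and was not called with both hairpins (-0.19, adjusted p = 0.0511).

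Of 12 tested endothelial transcription factors outside the 33 genes, Ets1 rose, with a log2 fold of 0.17 (limma adjusted p = 0.0388) and no overlap of knockdown and control arrays. Ets1 is an ETS factor of endothelium and lymphocytes. Of 20 tested other endothelial markers, the scavenger receptors Stab1 (0.19, limma adjusted p = 0.0360) and Cd36 (0.36, adjusted p = 0.0387) rose, and both are also carried by macrophages. Aqp1, a water channel of endothelium, fell with DHX9-837 by 0.25 on the log2 scale (limma adjusted p = 0.0371), and is named because it was 1 of the 2 falls. Of 8 tested other lymphatic genes only Thy1 rose (0.19, limma adjusted p = 0.0352), and Thy1 is also a marker of fibroblasts and T cells.

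Of 9 tested genes of activated and high endothelial venules, the vessels through which lymphocytes enter lymphoid tissue, only Glycam1 rose. Glycam1 codes for a mucin ligand of L-selectin made by those venules. Its log2 levels were 8.14, 8.87 and 8.35 in DHX9-1271, 8.19, 8.18 and 8.14 in DHX9-837, and 7.46, 7.41 and 7.51 in control. All knockdown arrays lay well above control, and DHX9-1271 replicate 2 was the highest. The log2 fold was 0.85 (1.81-fold, SE 0.13, limma adjusted p = 0.00461), larger than that of any of the 33 genes. Chst4, a sulfotransferase of the same venules, had a log2 fold of 0.17 with no overlap of knockdown and control arrays and was not called (limma adjusted p = 0.0856). Madcam1, the gut homing ligand, had 0.21 and was not called (adjusted p = 0.135).

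Markers of other cell types were measured on the same arrays, where 8.13% of all genes rose and 5.33% fell with both hairpins. With both hairpins, 5 of 9 B cell and follicle genes rose and 0 fell (median log2 fold 0.52), and so did 5 of 10 macrophage genes (0.28), 5 of 12 fibroblast genes (0.19) and 8 of 9 proliferation genes (0.49). The mean log2 level of the B cell list, less its control mean, was 0.260 to 0.800 in DHX9-1271, 0.313 to 0.700 in DHX9-837 and -0.0544 to 0.0604 in control. That of the macrophage list was 0.156 to 0.256 in DHX9-1271, 0.321 to 0.391 in DHX9-837 and -0.0279 to 0.0430 in control. That of the fibroblast list was 0.213 to 0.285 in DHX9-1271, 0.142 to 0.213 in DHX9-837 and -0.130 to 0.114 in control. All knockdown arrays lay above all control arrays on these 3 lists, and the part of these cells in the endothelial values was not tested.

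Lists of cells that wrap vessels or circulate in them were also looked up. They were short, so 0 or 1 call in them cannot be told apart from the shares of all genes. With both hairpins 8.13% of all genes rose, 5.33% fell and 29.0% had an unadjusted p under 0.05. Of 9 mural cell genes, which mark pericytes and vascular smooth muscle, Pdgfrb rose (0.19, limma adjusted p = 0.0293) and the median log2 fold was 0.01. Of 8 smooth muscle genes 0 were called, with 1 at an unadjusted p under 0.05. The smooth muscle mean was 0.0163 to 0.153 in DHX9-1271, -0.226 to -0.0316 in DHX9-837 and -0.0771 to 0.0810 in control. Of 6 tested platelet genes 0 were called and 0 reached an unadjusted p under 0.05, and 4 more of that list were not tested. The platelet mean was -0.0591 to 0.0310 in DHX9-1271, -0.0253 to 0.0604 in DHX9-837 and -0.0569 to 0.0682 in control, so the groups overlapped. Of 12 colon epithelium genes, Slc26a3 fell and 0 rose with both hairpins, with a median log2 fold of 0.01. The epithelium mean was at most 0.0472 in DHX9-1271, -0.131 to -0.0640 in DHX9-837 and -0.00944 to 0.0183 in control, so all DHX9-837 arrays lay below control. With DHX9-837, 1 of the 12 genes rose and 2 fell, where 8.67% of all genes rose and 6.91% fell. The median log2 fold of the 12 was then -0.07.

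**Figure D4:**
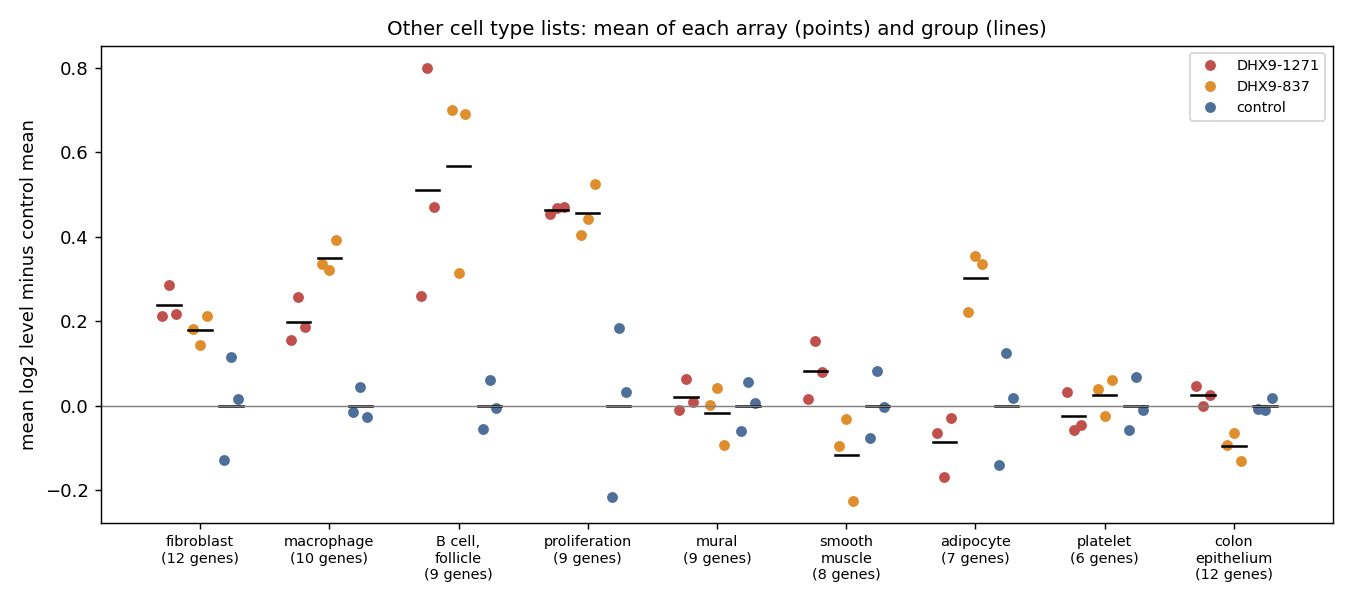
Mean log2 level of the tested genes of each cell type list less its mean in control (vertical axis), for DHX9-1271, DHX9-837 and control. Points are arrays and lines are group means (n = 3); B cell, macrophage, fibroblast and proliferation lists lie above control with both hairpins, while mural and platelet lists overlap control.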

How the data were processed

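The values analysed are the deposited log2 expression levels of 24973 probe sets on 9 Affymetrix Mouse Gene 2.0 ST arrays. They were made by the authors with RMA in oligo 1.30.0 under R 3.1.1, as the submitters' processing notes list. Neither the RMA options nor the definition of the probe sets nor the genome build was found in the labels or headers. Groups came from sample titles.

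The platform's probe table gave the gene names, and the brightest probe set stood for each symbol. A filter on the mean log2 level at the 30th percentile (5.28) kept 16808 of 24011 genes. limma 3.58.1 in R 4.3.3 was fitted once over all arrays, with 1 mean for each group and no block. Its two-sided p-values were adjusted by Benjamini-Hochberg over all genes tested. For both hairpins together, the means of DHX9-1271 and DHX9-837 were averaged with equal weight and set against control. The residual SD had a median of 0.0697 in the 33 genes and 0.0913 in all genes. The number of arrays limits the precision. Members and gene lists were chosen with earlier results of these data known.

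Values in every array are given for Dhx9, for members called in any comparison, for lymphatic members and for Kdr and Flt1. Tek was added after its values were seen, and the range of Cd34 in control likewise. Of each other list at most 4 genes of smallest p are named, and Aqp1 was added. Sequences are from RefSeq, GRCm38.p6. Replicate numbers were not used to pair the arrays in the main fit. Same-numbered deviations correlated at -0.366 to 0.261, over 0.1 in 2 of 9 pairs. These correlations cannot show that pairing was absent. As alternatives, the filter, the scaling, the limma settings, the arrays fitted and the genes kept were changed 1 at a time.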

Additional observations from a re-analysis of the deposited data

Results flagged for a closer look

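Between the hairpins 0 of the 33 endothelial genes were called, and 5 genes from the lists of other cells were, by limma over all genes tested. Of 7 tested adipocyte genes 3 were higher in DHX9-837 and 0 lower, and of 12 tested colon epithelium genes 2 were lower and 0 higher, where 0.696% of all genes were higher and 1.21% lower. Retn and Aqp8 are named because they complete these counts.

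Fabp4, a fatty acid binding protein of adipocytes that capillary endothelium also makes, had log2 levels of 8.76, 9.04 and 8.93 in DHX9-837, against 8.13, 7.83 and 8.13 in DHX9-1271, a difference of 0.88 (adjusted p = 0.0362). Lpl, the lipase that acts on the capillary surface, had 8.56, 8.71 and 8.61 in DHX9-837, against 8.19, 8.12 and 8.19 in DHX9-1271, a difference of 0.46 (adjusted p = 0.0480). Retn, the adipocyte hormone resistin in mice, had 7.80, 8.09 and 8.07 in DHX9-837, against 7.01, 6.73 and 7.09 in DHX9-1271, a difference of 1.04 (adjusted p = 0.0312). Slc26a3, the chloride and bicarbonate exchanger of colon epithelium, had 11.7, 11.8 and 11.7 in DHX9-837, against 12.1, 12.1 and 12.2 in DHX9-1271, a difference of -0.36 (adjusted p = 0.0196). Aqp8, a water channel of colon epithelium, had 10.01, 10.25 and 9.86 in DHX9-837, against 10.73, 10.68 and 10.71 in DHX9-1271, a difference of -0.67 (adjusted p = 0.0345).

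For each of the 5 genes the hairpin groups did not overlap. In control, Fabp4 had 7.83, 8.50 and 8.29, Lpl 7.58, 7.96 and 7.90, and Retn 7.22, 7.98 and 7.46. Slc26a3 had 12.4, 12.3 and 12.4 in control, and Aqp8 had 10.81, 10.38 and 10.72. The control arrays overlapped DHX9-1271 for Fabp4 and Aqp8, and DHX9-837 for Retn. They lay below both hairpin groups for Lpl and above both for Slc26a3. When each of the 9 arrays was left out in turn, Slc26a3 stayed called in 5 fits, Aqp8 in 3, and Fabp4, Lpl and Retn in 2, those without control replicate 1 or 2. None of the 5 was called without DHX9-1271 replicate 1 or 3 or DHX9-837 replicate 1 or 3, with adjusted p up to 0.160 (Lpl).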

How the results depend on the processing

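Emcn, Eng and Cdh5 were called with both hairpins in 18 of 19 alternatives, all but the 1.5-fold limit, which no member reached. Pecam1 was called in 17, Lyve1 in 7 and Ptprb in 6 of the 19. Prox1 and Plvap were each tested in 18 alternatives, and were called in 15 and 8 of them. Prox1 was absent with the filter at the median gene, and Plvap without genes that have identical values. Against 8 calls with both hairpins, 5 with DHX9-1271 and 5 with DHX9-837, there were 5, 3 and 3 with no level filter, where more genes are tested. Past 1.5-fold there were 0, 0 and 0 (limma, with 12, 14 and 9 at an unadjusted p under 0.05 and no fold limit). Array weights gave 5 with both hairpins, 3 with DHX9-837 and 1 between hairpins, where the main count was 0: Pecam1, lower in DHX9-837. Centring each array and cyclic loess each gave 3 with DHX9-1271, and only the arrays compared gave 2 and 2 for the single hairpins, with fewer samples in the fit. With the replicate number as a block, calls were 7 with both hairpins, 2 with DHX9-1271, 5 with DHX9-837 and 0 between hairpins. The causes of the changes with weights, scaling and block were not tested.

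Leaving out 1 array gave 3 to 7 calls with both hairpins, 0 to 5 with DHX9-1271 and 2 to 7 with DHX9-837. With both hairpins there were 3 without control replicate 1, and 5 without DHX9-1271 replicate 2 or 3, DHX9-837 replicate 2 or 3, or control replicate 3. With DHX9-1271 there were 3 whichever single DHX9-837 array was left out, and 2 without control replicate 3. With DHX9-837 there were 2 without DHX9-837 replicate 1 or 2 and 3 without its replicate 3 or DHX9-1271 replicate 3. Pecam1 lost its call without control replicate 1 (adjusted p = 0.0669) and Prox1 without control replicate 1 (0.0558) or 3 (0.0508). Kdr gained one without control replicate 3 (0.25, adjusted p = 0.0292). The blood vessel mean was 0.161 and the lymphatic mean 0.163 without genes that have identical values, which leaves fewer genes, and the lymphatic mean was 0.0559 with the filter at the median gene, which removes Prox1. The sign of Flt4 and Mmrn1 turned, near 0. Flt4 had -0.00769 with cyclic loess, -0.000533 with array weights and -0.0390 to 0.0519 when 1 array was left out. Mmrn1 had -0.0155, -0.000707 and -0.0216 to 0.0266.

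For all genes, DHX9-1271 had 741 calls, against 408 with no filter, 407 with the block, 335 with only the arrays compared and 118 past 1.5-fold. DHX9-837 had 2618, against 1675 with only the arrays compared and 400 past 1.5-fold. Both hairpins had 2263, against 226 past 1.5-fold. Between hairpins there were 320, against 140 with no filter, 493 with the filter at the median gene, 554 with trend and robust moderation, 719 with array weights, 168 with the block and 88 past 1.5-fold. Leaving out 1 array gave 1365 to 2065 with both hairpins, 128 (without DHX9-1271 replicate 3) to 714 with DHX9-1271, 1853 to 2515 with DHX9-837 and 28 to 360 between hairpins. The 28 came without DHX9-1271 replicate 3; there were 55, 85, 59, 121, 134 and 202 without DHX9-1271 replicate 1 or 2, DHX9-837 replicate 1, 2 or 3 or control replicate 3, in that order.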

Other observations

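Lists of other cells that the gut sample could hold also gave values. For comparison, 8.13% of all genes rose with both hairpins, 5.33% fell and 29.0% had an unadjusted p under 0.05. Of 7 tested adipocyte genes, Lpl rose with both hairpins (log2 fold 0.58, limma adjusted p = 0.00266) and Lipe fell (-0.27, adjusted p = 0.0148). The adipocyte mean, less its control mean, was -0.169 to -0.0292 in DHX9-1271, 0.220 to 0.353 in DHX9-837 and -0.141 to 0.124 in control, so only the DHX9-837 arrays lay above control. Of 5 tested mesothelium genes Krt19 rose (0.24, adjusted p = 0.0139), a keratin that gut epithelium also makes, while Msln, Upk1b and Upk3b had -0.06, -0.07 and -0.07 and were not called. Of 3 tested erythroid genes and 5 tested genes of posterior position 0 were called (limma), with 1 and 0 at an unadjusted p under 0.05.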
